A study of Bos taurus with 8 samples.

Results

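The IFIT genes encode interferon-induced proteins with tetratricopeptide repeats, and the scRNA-seq tables of bovine peripheral blood mononuclear cells (PBMCs) held 4 of them, IFIT1, IFIT2, IFIT3 and IFIT5, among 21861 gene rows. The members were taken by gene name, and the family was chosen because its levels differed between these libraries, so every level and ratio between treatments below is a description without a test. Blood of 4 lactating female Holstein cows, 2 years old, was mixed into a single pool, and the pool was divided into a portion without LPS and 3 portions with LPS. These 3 received 2 µg/ml LPS at 37 °C and were kept for 2 h, 4 h and 8 h until PBMC isolation. Each portion gave 1 scRNA-seq and 1 scATAC-seq library, so there is no replicate animal or culture behind any difference, and all 4 portions share the same mixed donors. The sources used here give no incubation time or temperature for the portion without LPS, so LPS, time in culture and temperature cannot be told apart in any ratio to it. LPS (lipopolysaccharide) is the outer membrane component of Gram-negative bacteria that is sensed by TLR4 with CD14.

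IFIT proteins bind RNA and restrict the translation or replication of viral RNA. IFIT1 recognises RNA whose cap lacks the methylation of host mRNA, IFIT2 and IFIT3 form complexes with it and with each other, and IFIT5 binds RNA with an uncapped phosphate end without the other members. The genes are transcribed through interferon-stimulated response elements, which are bound by transcription factors activated after interferon binds its receptor and which IRF3 can also use directly, and TLR4 signalling in monocytes and macrophages can start this pathway by inducing interferon-β.

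In the RefSeq annotation of the ARS-UCD2.0 assembly, IFIT2, IFIT3 and IFIT5 lie on chromosome 26 between LIPA and SLC16A12. The symbol IFIT1 is not in that table, where the protein-coding LOC100139670 and a pseudogene, LOC107131864, stand between IFIT3 and IFIT5. In the scRNA-seq tables IFIT1 (ENSBTAG00000007881) is listed between IFIT3 (ENSBTAG00000009768) and IFIT5 (ENSBTAG00000017367), with IFIT2 (ENSBTAG00000034918) before them. Reads that match a neighbouring family copy equally well could have been split or dropped in counting, which was not measured for any member. Levels are given as UMIs (unique molecular identifiers, 1 for each captured mRNA molecule) scaled to a total of 1000000 UMIs over the cells summed (CPM). Gene length and capture efficiency were not considered, so the members are compared with themselves across libraries and not ranked against each other.

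Cells were kept with 200 to 3000 genes detected, a minimum of 200 UMIs and less than 20% of UMIs from mitochondrial genes, which left 7821 of 8490 barcodes without LPS, 9865 of 10429 at 2 h, 7387 of 7977 at 4 h, then 3411 of 3860 at 8 h. They held 16657841 to 47875879 UMIs per library, with library medians of 3997 to 4757 UMIs per cell. Among the kept cells, 79 barcodes of 28405 occurred in more than 1 library, and doublets were not called. All intervals in square brackets are exact 95% intervals and cover counting error only.

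The 4 IFIT genes were low without LPS, higher at 2 h, highest at 4 h and near their starting level at 8 h. Over all cells, the family summed to 29.7 CPM [28.0 to 31.5] without LPS, 87.9 [85.3 to 90.6] after 2 h, 293 [288 to 298] after 4 h and 35.7 [32.9 to 38.7] after 8 h. The order of the libraries was therefore 4 h, 2 h, 8 h and no LPS, and none of these intervals overlapped. These ratios depended on how cells were averaged. With every cell weighted equally, the log2 ratio to no LPS was 0.80 in place of 1.53 at 2 h, below 2-fold, and 2.58 in place of 3.26 at 4 h. With UMIs summed, the 8 h library was 1.2-fold above no LPS [1.09 to 1.33], a log2 ratio of 0.26, whereas with equal weights it was -0.28.

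IFIT1, the cap-sensing member, was at 7.32 CPM without LPS, 28.5 at 2 h, 82.0 at 4 h, then 7.86 at 8 h. These levels rest on 282, 1365, 3293 and 131 UMIs. The ratio to no LPS was 3.89 at 2 h [3.42 to 4.44], 11.2 at 4 h [9.91 to 12.7], then 1.07 at 8 h [0.87 to 1.33], so the no LPS and 8 h levels did not differ beyond counting error.

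IFIT2 was at 6.80 CPM without LPS, 34.6 after 2 h, 78.2 after 4 h and 7.80 after 8 h. It had the largest ratio of the 4 members at 2 h, 5.08 [4.46 to 5.81], and the smallest step from 2 h to 4 h, 2.26-fold [2.13 to 2.40]. Its 8 h level was 1.15 times the level without LPS [0.92 to 1.42], within counting error.

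IFIT3 was at 5.43 CPM without LPS, 12.7 at 2 h, 91.1 at 4 h, then 7.56 at 8 h. Its step from 2 h to 4 h, 7.20-fold [6.60 to 7.85], was the largest of the 4 members. The ratio to no LPS was 2.33 at 2 h [1.99 to 2.74] and 16.8 at 4 h [14.6 to 19.4]. At 8 h it was still 1.39 times the level without LPS [1.11 to 1.75], but with cells weighted equally the log2 ratio at 8 h turned from 0.41 to -0.38.

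IFIT5 was at 10.2 CPM without LPS, 12.1 after 2 h, 41.6 after 4 h and 12.5 after 8 h. The 2 h level was only 1.2 times that without LPS [1.05 to 1.36], and at 4 h the ratio was 4.10 [3.67 to 4.59]. Its 2 h and 8 h levels did not differ beyond their counting intervals.

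**Figure D1:**
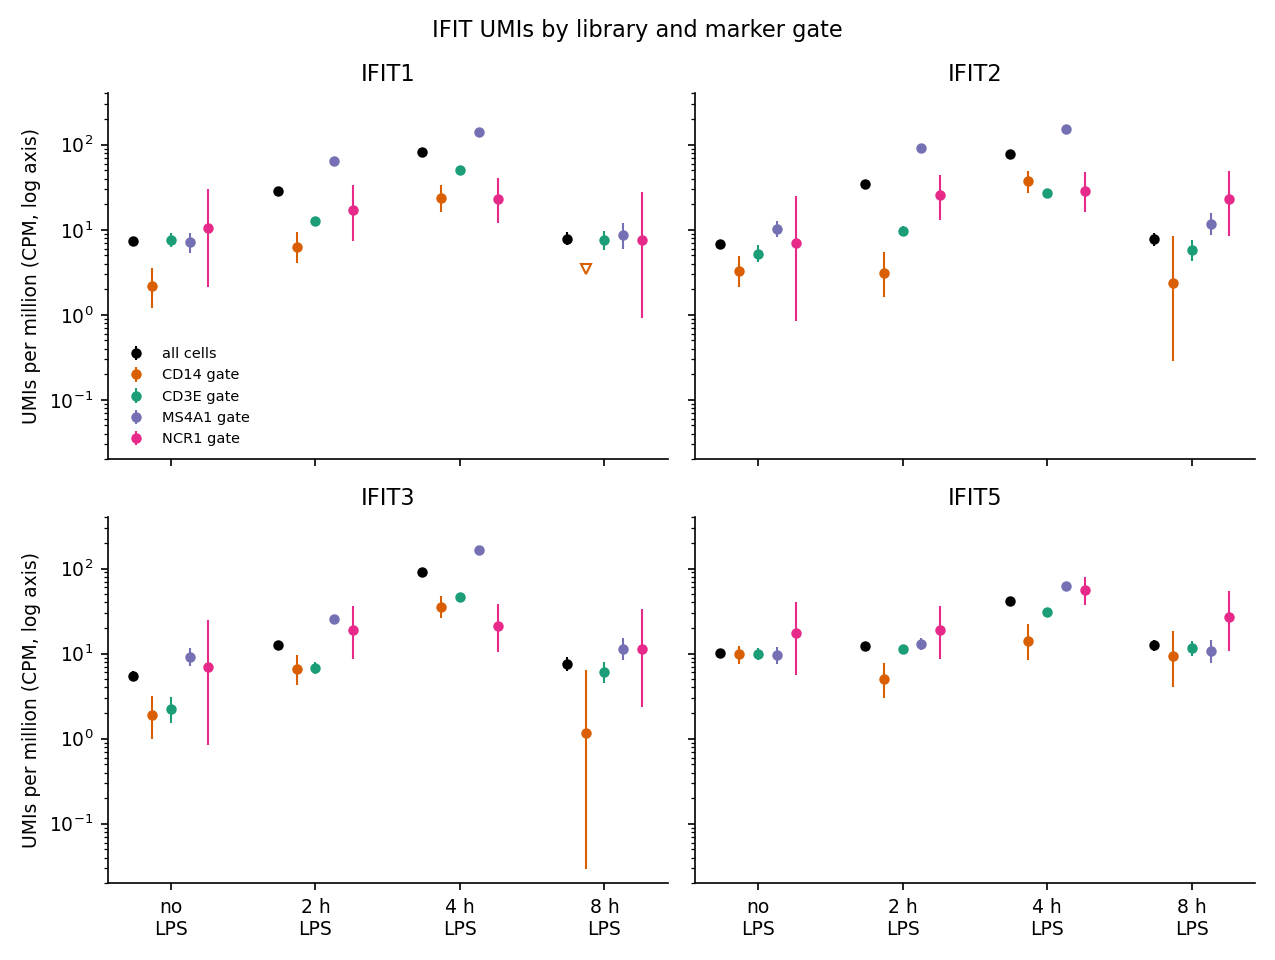
CPM (log axis) of each IFIT gene in the no LPS, 2 h, 4 h and 8 h libraries, for all cells (black) and for the 4 marker gates (colours). Points are sums over the cells of 1 library, bars are exact 95% Poisson intervals for counting error, and the open triangle marks the upper limit for 0 UMIs. All cells and the MS4A1 gate peak at 4 h for every member, at 41.6 to 91.1 and 62.7 to 167 CPM, and their IFIT5 levels in the other libraries lie between 9.56 and 13.1 CPM.

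Genes were called different when log2((CPM + 1)/(CPM + 1)) passed a 2-fold change for genes that reached 20 UMIs in the libraries compared, and all 4 members passed that minimum in every comparison of all cells. Higher than without LPS were 3 of 4 members at 2 h, where 0.938% of 12150 genes were, and 4 of 4 at 4 h, where 1.28% of 12060 genes were. At 8 h it was 0 of 4, beside 0.492% of 11778 genes. These comparisons share the library without LPS and the members were picked from them, so the percentages give scale only.

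Among all genes, ordered from the highest ratio to the lowest, IFIT3 was at rank 2, IFIT2 at 4, IFIT1 at 5 and IFIT5 at 35 at 4 h. At 2 h the ranks were 12 for IFIT2, 28 for IFIT1, 90 for IFIT3 and 1780 for IFIT5. Between consecutive times, all 4 members were higher at 4 h than at 2 h, as 0.555% of 12077 genes were, and all 4 were lower at 8 h than at 4 h, as 0.557% of 11668 genes were. From 4 h to 8 h, IFIT3 fell by 3.43 on the log2 scale, IFIT1 by 3.23, IFIT2 by 3.17 and IFIT5 by 1.66. IFIT3 and IFIT1 were the genes with the largest and next largest fall in that comparison, IFIT2 was at rank 4 and IFIT5 at rank 27. The median log2 ratio of all genes was -0.03 at 2 h, 0.02 at 4 h, then 0.10 at 8 h relative to no LPS.

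**Figure D2:**
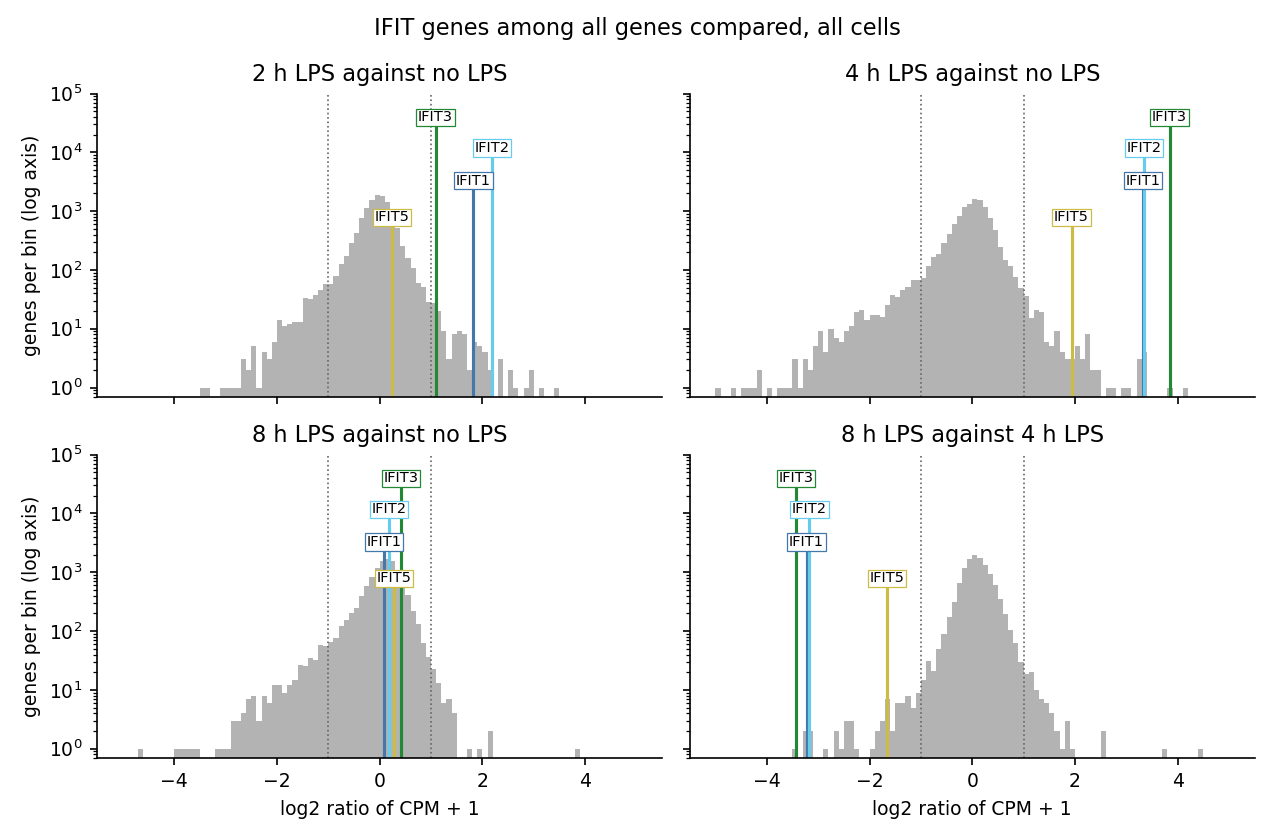
Histograms of log2 ratios of CPM + 1 over all genes compared (bins of 0.1, gene counts on a log axis), with each IFIT gene as a coloured line and dotted lines at 2-fold. IFIT1, IFIT2 and IFIT3 lie at the right edge at 4 h (3.32, 3.34 and 3.84), within the bulk at 8 h against no LPS, and at the left edge for 8 h against 4 h, while IFIT5 lies at 1.93 at 4 h and at 0.24 at 2 h.

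The make-up of the family changed over time. IFIT5 supplied 34.2% of the 1144 family UMIs without LPS, 13.8% after 2 h, 14.2% after 4 h and 35.0% after 8 h. The share of IFIT2 was 22.9%, 39.4%, 26.7% and 21.8% in the same order, with its peak at 2 h. IFIT3 went from 18.3% without LPS to 14.4% at 2 h, 31.1% at 4 h, then 21.2% at 8 h, and IFIT1 stayed between 22.0% and 32.4%.

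**Figure D3:**
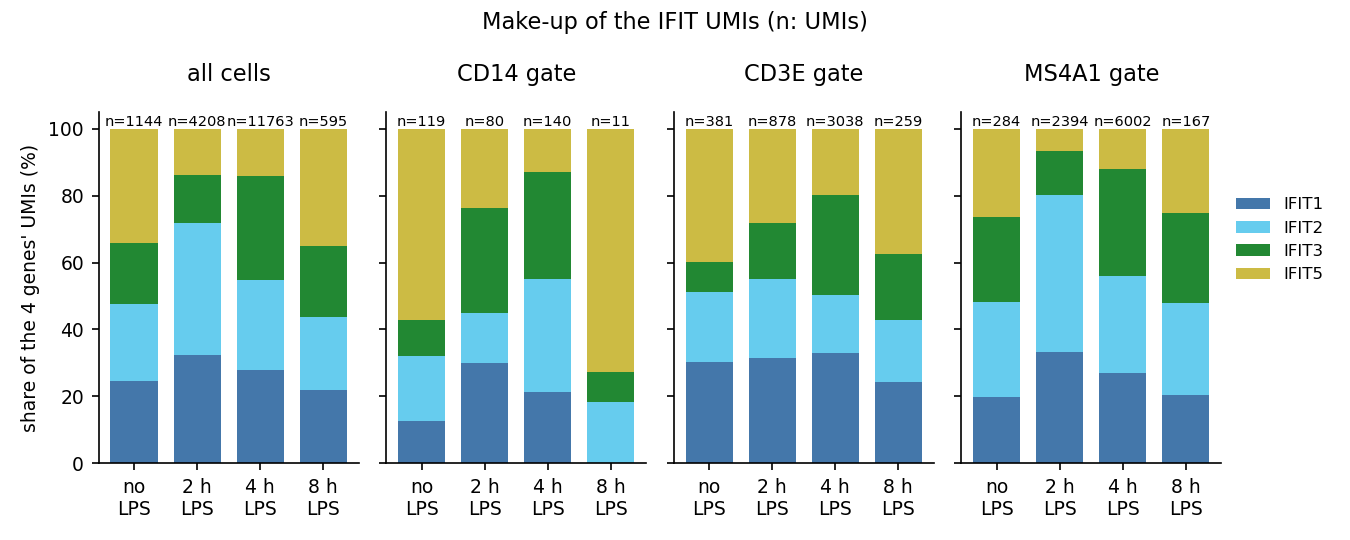
Share (%) of the 4 genes' UMIs that came from each member, by library, for all cells and for the CD14, CD3E and MS4A1 gates. The number of UMIs stands above each bar. In the MS4A1 gate at 2 h IFIT1 and IFIT2 supplied 33.4% and 46.9% of 2394 UMIs, whereas in the CD3E gate IFIT5 supplied 28.0% of 878.

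To place the family in cell classes, cells were gated on raw UMIs of CD14 (the LPS co-receptor of monocytes), CD3E (a chain of the T cell receptor complex), MS4A1 (CD20, a B cell surface protein) and NCR1 (an NK cell receptor). A gate took cells with at least 1 UMI of its marker and none of the other 3. The CD3E gate held 1550 to 4937 cells per library, the MS4A1 gate 663 to 2392, the CD14 gate 151 to 796 and the NCR1 gate 38 to 97, while 414 to 699 cells had several markers and 556 to 1441 had none. Defining markers that the gates did not use followed the labels. At 4 h CD79A, a chain of the B cell receptor, was at 156 CPM in the MS4A1 gate and 8.09 in the CD3E gate, CD3D was at 127 CPM in the CD3E gate and 1.83 in the MS4A1 gate, and CSF1R of monocytes was at 59.4 CPM in the CD14 gate with 0 UMIs in the CD3E and MS4A1 gates. At that time 3.58% of CD3E gate cells had a CD79A UMI, with a median of 4763 UMIs per cell, against 49.1% of MS4A1 gate cells with a median of 4992. This share of CD3E gate cells was lowest at 4 h, and the other libraries had 6.81% (no LPS), 4.50% (2 h) and 7.42% (8 h).

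MS4A1-gated B cells had the highest IFIT level of the 4 gates at 2 h and 4 h. The summed level in this gate was 36.2 CPM without LPS, 194 after 2 h, 524 after 4 h and 42.5 after 8 h. The 4 h ratio to no LPS was 14.5 [12.8 to 16.4] and the 2 h ratio 5.37 [4.75 to 6.10], while at 8 h it was 1.17 [0.96 to 1.43]. At 8 h the NCR1 gate had the higher value, 68.5 CPM, but its interval [40.6 to 108] overlapped that of the MS4A1 gate [36.3 to 49.5]. The 8 monocyte markers summed to 291, 21.8, 25.1 and 143 CPM in the MS4A1 gate from no LPS to 8 h, lowest where the IFIT level was high, and their part in the IFIT levels was not tested. In this gate 3 of 4 members were higher than without LPS at 2 h, beside 2.54% of 9871 genes, and 4 of 4 at 4 h, beside 2.56% of 9819. All 4 were lower at 8 h than at 4 h, beside 1.21% of 9507 genes.

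The early part of the B cell response lay in IFIT1 and IFIT2. IFIT1 in the MS4A1 gate was at 7.14 CPM without LPS, 64.9 at 2 h, 142 at 4 h, then 8.65 at 8 h. IFIT2 was at 10.3, 91.1, 152 and 11.7 CPM in the same order. Their 2 h ratios were 9.10 [6.93 to 12.2] and 8.83 [7.04 to 11.2], against 19.8 [15.2 to 26.4] and 14.8 [11.8 to 18.7] at 4 h.

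IFIT3 and IFIT5 had smaller 2 h ratios in the same cells. IFIT3 was at 9.18 CPM without LPS, 25.3 after 2 h, 167 after 4 h and 11.5 after 8 h, a ratio of 2.76 at 2 h [2.13 to 3.62] and 18.2 at 4 h [14.4 to 23.4]. IFIT5 was at 9.56, 13.1, 62.7 and 10.7 CPM in the same order, a ratio of 1.37 at 2 h and 6.56 at 4 h [5.17 to 8.44]. From 2 h to 4 h IFIT2 differed 1.67-fold and IFIT3 6.59-fold in this gate.

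CD3E-gated T cells showed a smaller change. Their summed level was 25.0 CPM without LPS, 40.3 at 2 h, 155 at 4 h, then 31.1 at 8 h, which gives ratios of 1.61 [1.43 to 1.82], 6.18 [5.55 to 6.89] and 1.24 [1.06 to 1.46]. IFIT3 was at 2.23, 6.79, 46.2 and 6.13 CPM and had the largest 4 h ratio of the members, 20.7 [14.7 to 30.1], on 34 UMIs without LPS. It was also the 1 member past 2-fold at 2 h, beside 0.616% of 10718 genes, and at 8 h, beside 0.707% of 10326.

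IFIT1 in the T cell gate was at 7.55 CPM without LPS, 12.6 after 2 h, 51.0 after 4 h and 7.58 after 8 h, and IFIT2 was at 5.25, 9.59, 26.8 and 5.77. IFIT5 was at 9.98, 11.3, 30.5 and 11.7. At 4 h all 4 members were past 2-fold, beside 1.08% of 10658 genes, with ratios of 6.76, 5.09 and 3.06 for IFIT1, IFIT2 and IFIT5. All 4 were again lower at 8 h than at 4 h, beside 0.498% of 10443 genes.

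The B cell gate exceeded the T cell gate in every library, by 1.45-fold without LPS [1.24 to 1.69], 4.83-fold at 2 h [4.47 to 5.22], 3.39-fold at 4 h [3.24 to 3.54] and 1.36-fold at 8 h [1.12 to 1.66]. At 2 h the gap was 9.50-fold for IFIT2, 5.14-fold for IFIT1, 3.73-fold for IFIT3 and 1.16-fold for IFIT5 [0.94 to 1.42]. IFIT5 thus did not differ between the T and B cell gates beyond counting error at 2 h, and at 4 h it was 2.06-fold higher in the B cell gate [1.84 to 2.29].

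The CD14 gate had the lowest summed level of the 4 gates in every library, 17.2 CPM without LPS, 20.9 at 2 h, 111 at 4 h, then 12.8 at 8 h, and only at 4 h did its interval [93.3 to 131] overlap that of a neighbour, the NCR1 gate [100.1 to 164]. This ranking holds for the kept cells. Barcodes with more than 3000 genes, 419 to 619 per library, were left out, and the gate levels with them are not given here. The 4 h ratio of the CD14 gate was 6.46 [5.03 to 8.32]. IFIT3 was at 1.87, 6.54, 35.6 and 1.17 CPM, IFIT2 at 3.32, 3.14, 37.2 and 2.33, and IFIT1 at 2.16, 6.28, 23.8 and 0 CPM, where 0 of 856677 UMIs allows up to 3.50 CPM. IFIT5 was at 9.80, 4.97, 14.3 and 9.34 CPM, and it was the 1 member not past 2-fold at 4 h, beside 6.61% of 7774 genes. Markers of other cells differed between libraries in this gate too. The granulocyte list, with 2 of 3 markers found and neither at 0, summed to 11.4, 49.5, 120 and 51.4 CPM, and the 7 NK markers, of which 2 or 3 were at 0, to 38.6, 19.4, 96.6 and 131 CPM. The 7 B cell markers, with 1 at 0, summed to 15.4, 15.2, 40.4 and 99.2 CPM. CSF1R was at 130, 52.6, 59.4 and 84.0 CPM in the same order. The share of gate cells with a CSF1R UMI was 52.5%, 34.0%, 25.8% and 18.8%, at medians of 8293, 10468.5, 5906 and 1550.5 UMIs per cell. The part of these differences in the IFIT levels was not tested.

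At 2 h IFIT1 and IFIT3 were past 2-fold in this gate, beside 4.20% of 8018 genes, and IFIT5 was 0.507 times its level without LPS [0.288 to 0.854]. With TMM scaling that ratio was 0.711 [0.404 to 1.2] and with DESeq2 size factors 0.74 [0.42 to 1.25], so it no longer differed from 1 beyond counting error. The IFIT2 ratio at 2 h was 0.947 [0.430 to 1.98] by total counts. With TMM scaling it was 1.33 [0.602 to 2.78] and with DESeq2 size factors 1.38 [0.627 to 2.89], and each of these intervals included 1. The median log2 ratio of all genes in the CD14 gate was -0.51 at 2 h, and -0.13 at 4 h. These values rest on few cells: 796, 382, 151 and 170 in the 4 libraries, with 119, 80, 140 and 11 family UMIs, and 1 cell held 40 of the 140 UMIs at 4 h. At 8 h the gate's median was 1550.5 UMIs per cell and 104 of its 170 cells had a single CD14 UMI. With at least 2 CD14 UMIs the gate held 707, 308, 117 and 66 cells and the summed level was 14.0, 19.6, 96.0 and 7.86 CPM. The 4 h log2 ratio of 2.62 was 3.94 without the 5% of cells with the most UMIs, and 3.45 when CD14 cells were taken whatever their other markers.

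The NCR1 gate was at 41.6 CPM without LPS, 80.4 after 2 h, 129 after 4 h and 68.5 after 8 h, from 12, 38, 67 and 18 UMIs. The 4 h ratio was 3.1 [1.66 to 6.30] and the intervals of the other ratios to no LPS included 1. IFIT5 alone had the 20 UMIs needed for a call at 4 h, and it was higher, 55.9 against 17.3 CPM, beside 5.46% of 3921 genes. It supplied 43.3% of the gate's family UMIs at 4 h [31.2 to 56.0], against 12% in the MS4A1 gate.

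A summed level does not separate more positive cells from more UMIs in each. The share of all cells with a UMI of any IFIT gene was 10.6% without LPS, 16.5% at 2 h, 38.9% at 4 h, then 13.1% at 8 h. With each cell thinned to 1000 UMIs and shallower cells left out (7313, 9436, 7103 and 3034 cells remained), it was 2.61%, 5.70%, 17.0% and 3.53%. The order of the libraries was the same at both depths. UMIs per positive cell differed too, with 1.38 without LPS, 2.58 after 2 h, 4.09 after 4 h and 1.33 after 8 h.

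In the MS4A1 gate 12.9% of cells were positive without LPS, 27.7% at 2 h, 59.0% at 4 h, then 18.9% at 8 h, and after thinning 3.42%, 9.48%, 29.7% and 4.36%. In the CD3E gate the shares were 9.74%, 11.4%, 29.8% and 13.0%, and after thinning 2.28%, 3.57%, 10.6% and 3.20%. In the CD14 gate they were 7.91%, 9.42%, 21.9% and 6.47%, and after thinning 1.23%, 3.09%, 13.1% and 1.53%. The NCR1 gate ranged from 17.2% without LPS to 41.1% at 4 h, and from 3.45% to 11.1% after thinning. No cell class is known to lack these genes, so the part of these shares that came from free RNA was not measured. Markers of other cells give a scale only. At 4 h 3.58% of CD3E gate cells had a CD79A UMI and 6.12% a UMI of HBB, an erythroid marker. The HBB share was 12.1% at 8 h. Over all cells at 4 h CD79A was at 57.6 CPM, below the 293 CPM of the IFIT sum, so its share could understate carry-over of IFIT UMIs.

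**Figure D4:**
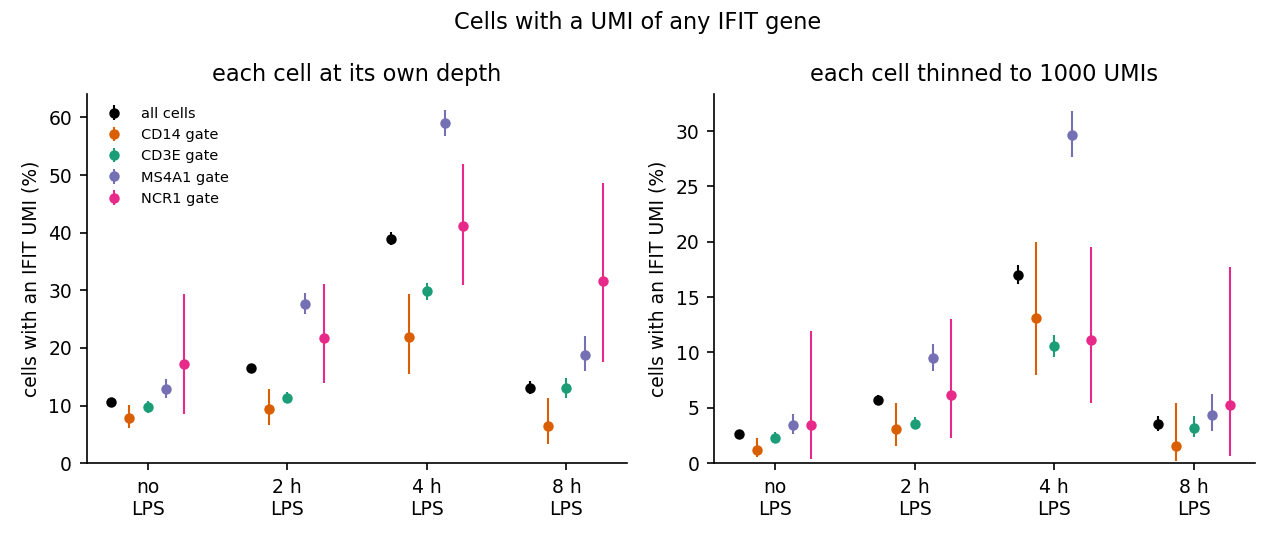
Percent of cells with a UMI of any IFIT gene by library, at each cell's own depth (left) and after thinning to 1000 UMIs (right), for all cells and the 4 gates, with exact 95% binomial intervals. The MS4A1 gate stands above all cells at 2 h and 4 h in both panels, at 27.7% and 59.0% on the left and 9.48% and 29.7% on the right.

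By 4 h, 38.0% of MS4A1 gate cells had an IFIT1 UMI, 36.2% an IFIT2 UMI, 30.7% an IFIT3 UMI and 23.8% an IFIT5 UMI. In the CD3E gate the same shares were 15.8%, 9.57%, 10.6% and 12.3%. Cells with UMIs of all 4 members numbered 5 without LPS, 37 at 2 h and 306 at 4 h, of which 193 were in the MS4A1 gate.

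With all cells thinned to 1000 UMIs, a member was detected more often in cells that held a UMI of another member, for every pair without LPS, at 2 h and at 4 h. Without LPS few cells held both members, from 2 for each pair with IFIT5 to 8 for IFIT1 with IFIT3. IFIT5 was then detected in 2 of 53 IFIT1-positive cells (3.77%) and in 0.895% of IFIT1-negative cells, too few to show an association. In the MS4A1 gate without LPS, IFIT1, IFIT2 and IFIT3 were each detected in 0 of 23 IFIT5-positive cells, which allows up to 13.0%. At 4 h IFIT3 was detected in 26.9% of 472 IFIT1-positive cells and in 4.81% of 6631 IFIT1-negative cells. For IFIT5 these shares were 8.69% and 3.42%. Within the MS4A1 gate alone, IFIT3 was detected in 27.4% of IFIT1-positive and 9.67% of IFIT1-negative cells, and in the CD3E gate in 17.2% and 2.65%, so the association was present within both gates at 4 h. At 8 h too few cells were positive to show whether it was present for each pair. IFIT2 was detected in 0 of 26 IFIT1-positive cells, which allows up to 11.5%, and in 0.831% of 3008 IFIT1-negative cells. IFIT3 was detected in 2 of the 26 IFIT1-positive cells (7.69%) and in 0.632% of the IFIT1-negative cells. In the CD3E gate without LPS no thinned cell held UMIs of a pair of members, among 8 to 29 positive cells per member, which were also too few.

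A small number of cells carried much of the family's signal at 2 h. The 1% of cells with the most IFIT UMIs held 40.8% of them at 2 h, against 29.8% without LPS, 18.6% at 4 h and 21.9% at 8 h. Cells with at least 5 IFIT UMIs numbered 16 without LPS (0.205% of cells), 170 after 2 h (1.72%), 769 after 4 h (10.4%) and 7 after 8 h (0.205%). Of these, the MS4A1 gate held 4, 112, 430 and 0, and without LPS 8 of the 16 were cells with no gate marker. The highest count in a single cell was 30, 92, 129 and 10 UMIs. The MS4A1 gate gave 56.9% of the family UMIs at 2 h and 51.0% at 4 h, while it held 25.7% and 28.5% of all UMIs.

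**Figure D5:**
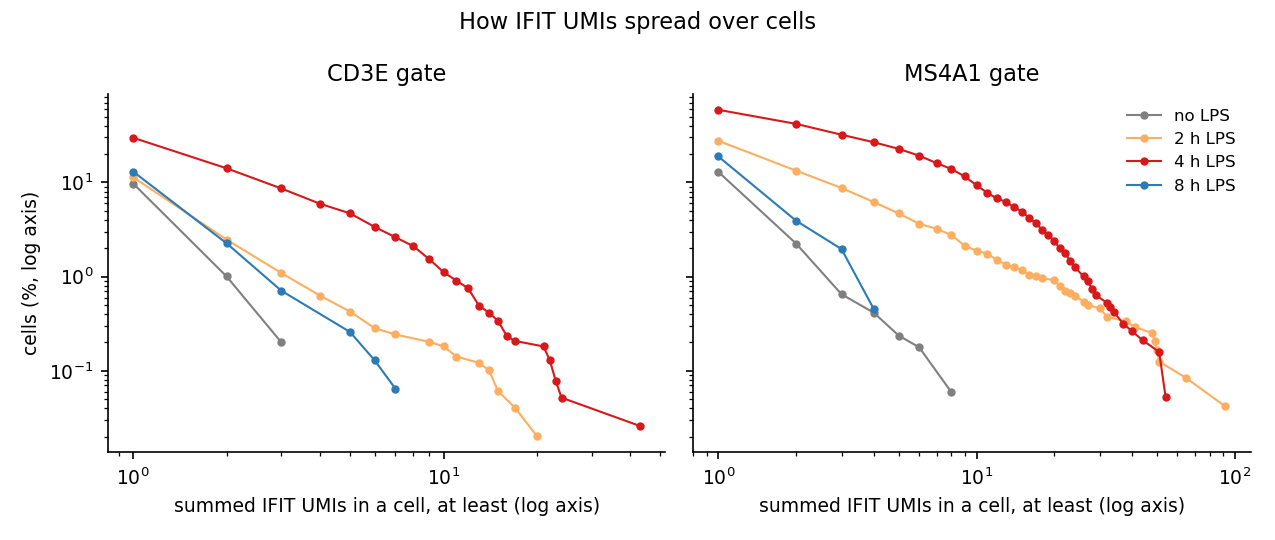
Percent of cells (log axis) with at least a given number of summed IFIT UMIs (log axis) in the CD3E and MS4A1 gates, 1 line per library. In the MS4A1 gate the 4 h line is highest for low counts (22.7% of cells had at least 5 UMIs, against 4.68% at 2 h), and the 2 h line reaches the single highest cell, at 92 UMIs.

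At 2 h and 4 h, ISG15 and MX1 were detected more often in IFIT-positive than in IFIT-negative cells of the MS4A1 and CD3E gates. The other targets compared, ISG20, SAMHD1 and SP110, also had higher shares in both gates at 4 h, for SAMHD1 with overlapping intervals. At 1000 UMIs per cell and 4 h, ISG15, a ubiquitin-like modifier, was detected in 92.3% of 555 IFIT-positive cells of the MS4A1 gate [89.7 to 94.3] and in 61.8% of 1315 IFIT-negative cells [59.1 to 64.5]. At 2 h the shares were 80.4% and 36.6%. In the CD3E gate ISG15 was detected in 44.8% against 11.9% at 2 h and in 79.5% against 32.6% at 4 h.

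MX1, a dynamin-like antiviral GTPase, was detected at 4 h in 63.4% of IFIT-positive and 37.7% of IFIT-negative cells of the MS4A1 gate. Without LPS the same shares were 8.93% [2.96 to 19.6] and 11.3% [9.80 to 13.0], which did not differ beyond counting error. ISG20, an exonuclease, was in 35.0% against 14.5% of MS4A1 gate cells at 4 h, while SAMHD1, a nucleotide hydrolase, was in 5.05% against 4.26% with overlapping intervals. Over all cells SAMHD1 went the other way, at 23.5% [21.1 to 26] of IFIT-positive and 32.4% [31.2 to 33.6] of IFIT-negative cells at 4 h, and at 21.9% against 30.7% at 2 h. In the CD3E gate at 4 h it was in 51.75% [46.7 to 56.7] of IFIT-positive and 46.1% [44.4 to 47.8] of IFIT-negative cells. The lower share over all cells was thus not seen within the MS4A1 or CD3E gate at 4 h, and SAMHD1 detection differed widely between these gates. SP110, a nuclear body protein, was in 36.8% against 29.9% of MS4A1 gate cells at 4 h, and in 22.3% against 26.6% at 2 h with overlapping intervals.

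The rest of the interferon pathway was described over a list of 77 symbols. For these 72 rows were found, several of them sharing the symbol IFNB3 while other symbols had no row, and 61 rows had enough UMIs. At 4 h 36 of the 61 were higher than without LPS, where 1.28% of all genes were, and 0 were lower, where 4.26% were, with a median log2 ratio of 1.26 against 0.02 over all genes. At 2 h 5 were higher, beside 0.938% of all genes, and at 8 h 2 were, beside 0.492%. Lower at 8 h than at 4 h were 24, beside 0.557%. The list was assembled with earlier results of these data known.

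Most of the listed ligands had no row or no UMI. IFNG, the T and NK cell interferon, was at 0.91 CPM without LPS, 8.71 at 2 h, 4.03 at 4 h, then 1.02 at 8 h. It was the 1 ligand with enough UMIs, and its peak at 2 h came before the 4 h peak of the 4 IFIT genes. The 6 rows named IFNB3 and those of IFNAG, IFNK, IFNE, IFNT and IFNL3 had 0 UMIs in all 4 libraries, which allows up to 0.0627 to 0.180 CPM of counted UMIs. Reads that match several rows equally well could have been dropped in counting, which was not measured. IFNB1, IFNB2, IFNAC, IFNAD, IFNAH and IFNW1 had no row, so their levels are not known.

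None of the 6 receptor genes passed 2-fold in all cells, with a median log2 ratio of -0.14 at 4 h. At 4 h 1.28% of all genes were higher and 4.26% lower, so none of 6 is near the share over all genes. IFNAR1 and IFNAR2, the chains of the type I interferon receptor, were at 59.5 to 69.7 and 60.3 to 74.4 CPM over the 4 libraries. Of the 6 signal transducers, STAT2 was higher by 2-fold at 4 h, beside the same 1.28% (20.2 CPM without LPS, 24.6 after 2 h, 44.2 after 4 h and 33.6 after 8 h). JAK1 and IRF9 had log2 ratios of 0.29 and 0.58 at 4 h and did not pass.

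Among the regulators, 2 of 9 were higher by 2-fold at 4 h, beside 1.28% of all genes. These were IRF7, a transcription factor that amplifies interferon synthesis, at 58.4, 94.6, 237 and 85.3 CPM, and USP18, which removes ISG15 from proteins and restrains receptor signalling, at 62.2, 88.0, 200.2 and 76.9 CPM. Of the RNA sensors 3 of 4 were higher by 2-fold at 4 h, beside the same 1.28%. IFIH1 (MDA5) was at 45.7, 145, 240 and 68.4 CPM and was already past 2-fold at 2 h, whereas DDX58 (RIG-I) was at 17.0, 18.2, 98.6 and 27.4 CPM.

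Of the other interferon targets, 29 of 35 were higher by 2-fold at 4 h (1.28% of all genes), 3 at 2 h (0.938%) and 2 at 8 h (0.492%), and 18 were lower at 8 h than at 4 h (0.557%). ISG15 was at 163 CPM without LPS, 1202 at 2 h, 2934 at 4 h, then 339 at 8 h, and MX1 at 48.1, 140.3, 488 and 87.0. The median log2 ratio of these 35 genes at 4 h was 1.48 in all cells, where the IFIT genes were at 1.93 to 3.84. At 8 h the median in all cells was 0.61, above the values of all 4 IFIT genes (0.09 to 0.41). Relative to this list, the IFIT genes thus stood high at 4 h and low at 8 h in all cells. This did not hold for every member in the CD3E gate at 8 h. There the median of the list was 0.46, with IFIT3 above it at 1.14 and IFIT1, IFIT2 and IFIT5 below it at 0.004 to 0.21.

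The genes whose pattern was most like that of the family were sought over the 16 sums of 4 libraries by 4 gates, by Pearson r with the mean log2(CPM + 1) of the 4 members among 10003 genes with at least 200 UMIs. The 10 highest were ZNFX1 (0.89), IFIH1 (0.89), DDX58 (0.87), PARP14 (0.86), OAS1Z (0.86), ENSBTAG00000022489 (0.85), DTX3L (0.85), HERC5 (0.84), EIF2AK2 (0.83) and MORC3 (0.83). Of these 10, 8 were on the interferon pathway list, for which 72 rows were found. How many of the 72 were among the 10003 genes was not counted. The family and the list were both chosen with results of these libraries known, so this number is a description only. Among the members, IFIT1, IFIT2 and IFIT3 had r of 0.90 to 0.92 with each other, and IFIT5 had 0.65 to 0.72 with them. These sums share libraries and depth and are not independent points.

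The scATAC-seq tables used here held no row for the Ensembl identifiers of the 4 members, so the accessibility of the IFIT genes was not analysed here. LIPA, the neighbouring gene on one side, had 174 CPM at 2 h, then 189 and 160.1 CPM, and SLC16A12 on the other side 10.3, 7.12 and 6.69. The no LPS library held 975012 counts against 11957904 to 30250143 in the others and was not compared. Of the other interferon targets with enough counts, 0 of 32 passed 2-fold in either direction from 2 h to 4 h, where 0.457% of 13133 genes were higher and 1.46% lower, with a median log2 ratio of 0.15. From 4 h to 8 h 4 of 30 were lower and 0 higher, with a median of -0.32, where 5.65% of 11460 genes were lower and 0.829% higher.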

How the data were processed

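The scRNA-seq files deposited by the authors hold unnormalized UMI counts of genes by barcodes. The submitters' processing notes name Cell Ranger and the bovine build ARS-UCD1.2 (bosTau9). For scATAC-seq they deposited counts per gene and barcode, 975012 to 30250143 per library, and the rule that assigned fragments to genes is not given in the sources used here. Of the scATAC-seq values above 0, 88.7% to 93.8% were even, so intervals there were computed on the counts halved.

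Cells were kept by limits on genes, UMIs and mitochondrial UMIs (13 genes) taken from the study's methods, whose UMI limit was read as a minimum. They left more cells in every library than the study states, so its cell set was not recovered. UMIs were summed over the cells of a library or gate, scaled to CPM with a pseudocount of 1 CPM, and compared as log2 ratios. The ratio of raw CPM is given as the fold. Shares of cells have exact binomial intervals, levels have exact Poisson intervals, and folds have the exact interval for a ratio of Poisson counts. A count of 0 was given the level of 3 counts as its upper limit. These intervals take UMIs as independent and leave out the spread between cells and animals.

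With 1 library per treatment there was no test and no p-value. The members, gate markers, pathway list and settings were chosen with earlier results of these data known. Genes named in the text are the 4 members, the gate markers, at most 5 genes with the most UMIs of each pathway group, the 10 genes most like the family and, for the gate checks, CD79A, CD3D, CSF1R and HBB, with LIPA and SLC16A12 as neighbours. A gene of the pathway list that this rule would name is not reported here. Of the ligands, those without a row or a UMI were named after their values were seen. Thinning drew 1000 UMIs per cell without replacement. Scaling by edgeR 4.0.16 (TMM) and DESeq2 1.42.0 size factors served as an alternative only, with no test from either. The ratio step was tested on simulated data. Analyses ran in Python 3.11.15 with numpy 2.4.6, scipy 1.17.1 and pandas 2.3.3. No genome or sequence table of the files' build was used, so promoter motifs, coordinates and sequences were not analysed here, and gene order came from the RefSeq table of ARS-UCD2.0.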

Additional observations from a re-analysis of the deposited data

Results flagged for a closer look

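IFIT5 at 2 h lay in opposite directions in 2 gates. In the CD14 gate it was 0.507 times its level without LPS [0.288 to 0.854], from 68 UMIs without LPS and 19 at 2 h. In the MS4A1 gate it was 1.37 times that level [1.03 to 1.82], from 75 and 161 UMIs. The difference between the gates was not tested, since each gate has 1 library per treatment. The median log2 ratio of all genes at 2 h was -0.51 in the CD14 gate and -0.12 in the MS4A1 gate. With TMM scaling the folds were 0.711 [0.404 to 1.2] and 1.46 [1.1 to 1.95], and with DESeq2 size factors 0.74 [0.42 to 1.25] and 1.48 [1.12 to 1.98]. The CD14 interval then includes 1, so the opposite directions beyond counting error were not kept under these scalings.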

How the results depend on the processing

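With 1 library per treatment, no alternative gives a replicate check, and library effects cannot be told apart from treatment. No paired analysis was possible because each treatment had 1 library and no test was made. Of 704 values recomputed under alternatives, 604 moved by less than their counting interval (for counts of genes, 1.5 times) and 98 moved more. The other 2 left a counting interval that excluded no change and also changed direction. Changes of direction within an interval, or from an interval that included no change, were not counted apart. All 192 recomputed log2 ratios of single members at 4 h, in all cells and the gates, were above 0, from 0.12 to 5.84. Weighting cells equally turned the 8 h log2 ratio of the summed level over all cells from 0.26 to -0.28 and that of IFIT3 from 0.41 to -0.38, and gave 0.80 at 2 h (1.53 as reported), 2.58 at 4 h (3.26) and 2.40 in the CD3E gate at 4 h (2.58). The cause was not tested. A pseudocount of 10 CPM gave, for all cells, 1.30 at 2 h and 2.93 at 4 h, and at 4 h 2.15 in the CD14 gate, 2.23 in the CD3E gate and 3.53 in the MS4A1 gate (3.82 as reported). Without an upper limit on genes per cell, the 4 h log2 ratio was 3.36, and 12.2%, 17.6%, 41.4% and 17.0% of cells had an IFIT UMI (no LPS, 2 h, 4 h and 8 h). Thinned to 1000 UMIs, the shares were 2.61%, 5.70%, 17.0% and 3.53%, lower by construction. Removing the 5% of cells with the most UMIs gave 3.13 at 4 h over all cells and 3.94 in the CD14 gate, where gating whatever the other markers gave 3.45. With TMM scaling 36 genes were past 2-fold higher at 8 h against 58 by total counts. The alternatives for IFIT accessibility were not run, since the tables used here held no row for these genes, and promoter motifs were not run, since no promoter sequence was used. The 8 h library had the fewest UMIs, and the NCR1 and CD14 gates the widest intervals.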
